A study of Homo sapiens with 45 samples.

Results

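The insulin-like growth factor (IGF) genes were followed across Ewing sarcoma and osteosarcoma cell lines: the ligands IGF1 and IGF2, the receptors IGF1R and INSR, and the binding proteins IGFBP2, IGFBP3, IGFBP4, IGFBP5, IGFBP6 and IGFBP7. They were chosen by name, as 10 of the 41582 genes in the tables, and the values of a gene were summed over all of its transcripts. RNA sequencing of poly(A) RNA gave 45 libraries. Of these, 21 came from 7 Ewing sarcoma lines (EW3, EW24, A673, TC71, RDES, SKES1 and MHHES1) and 18 from 6 osteosarcoma lines (U2OS, SAOS2, MG63, G292, KHOS and HOS-MNNG), each line giving 3 libraries, and the labels name no treatment for them. A further 6 came from A673 cells carrying sh908, a hairpin against the potassium channel gene KCNN1 that doxycycline switches on, with 3 libraries without and 3 with doxycycline. The sh908 cells are 1 hairpin in 1 line, and no induced control hairpin was compared here, so an effect of doxycycline itself cannot be told apart from one of the hairpin. The labels do not say whether the 3 libraries of a group came from separate cultures, so p-values from libraries measure only the spread between these samples. HOS-MNNG and KHOS both derive from the osteosarcoma line HOS and are not fully independent.

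IGF1 and IGF2 are secreted peptides that signal through IGF1R, a receptor tyrosine kinase, and through the insulin receptor INSR, whose isoform A binds IGF2 well. Signals pass through the IRS adaptors to PI3K and AKT. IGFBP2 to IGFBP6 bind the ligands with high affinity and limit or prolong their access to the receptor, while IGFBP7 is a related matrix protein of low affinity. Ewing sarcoma is driven by fusions of EWSR1 with an ETS factor, most often FLI1, which bind GGAA repeats, and IGF1R has been a drug target in both bone tumours.

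In the RefSeq positions of build GRCh38.p14, the ligand genes are IGF1 at chr12:102395874-102481839 and IGF2 at chr11:2129117-2149566, both on the minus strand. IGF1R lies at chr15:98648539-98964530 on the plus strand and INSR at chr19:7112265-7294414 on the minus strand. IGFBP2 (chr2:216632828-216664436, plus strand) and IGFBP5 (chr2:216672105-216695549, minus strand) face each other with 7668 bases between their ends. IGFBP3 lies at chr7:45912245-45921272 (minus strand), IGFBP4 at chr17:40443450-40457725 (plus strand), IGFBP6 at chr12:53097667-53102340 (plus strand) and IGFBP7 at chr4:57030773-57110385 (minus strand).

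Promoters are shown for the members that passed the test between tumour types, since the ETS core GGAA is the sequence that the Ewing fusions bind. RefSeq windows were found for 8 of the 10 members, 11 windows in all, and not for IGF2 and IGFBP7. Each sequence below holds the 250 bases before an annotated start of the gene, 5′ to 3′ along the gene, with GGAA and its reverse complement TTCC in capitals. The windows are chr12:102481748-102481997 (minus strand) and chr12:102478551-102478800 (minus strand) for 2 starts of IGF1, chr15:98648289-98648538 (plus strand) for IGF1R and chr12:53097417-53097666 (plus strand) for IGFBP6, all in GRCh38.p14. The first IGF1 window lies partly inside the span of the gene, which ends at 102481839. Its start, unlike those of the other printed windows, was not found in the GENCODE annotation.
IGF1, upstream start: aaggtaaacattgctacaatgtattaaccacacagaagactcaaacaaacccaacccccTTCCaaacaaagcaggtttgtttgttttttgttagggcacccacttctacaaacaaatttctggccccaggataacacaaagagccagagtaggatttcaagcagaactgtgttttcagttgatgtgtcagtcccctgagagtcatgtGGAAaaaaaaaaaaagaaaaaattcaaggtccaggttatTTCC
IGF1, downstream start: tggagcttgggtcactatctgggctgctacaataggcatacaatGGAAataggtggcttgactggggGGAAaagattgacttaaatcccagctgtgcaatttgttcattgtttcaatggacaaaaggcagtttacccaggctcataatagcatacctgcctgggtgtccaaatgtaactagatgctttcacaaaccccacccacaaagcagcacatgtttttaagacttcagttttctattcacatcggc
IGF1R: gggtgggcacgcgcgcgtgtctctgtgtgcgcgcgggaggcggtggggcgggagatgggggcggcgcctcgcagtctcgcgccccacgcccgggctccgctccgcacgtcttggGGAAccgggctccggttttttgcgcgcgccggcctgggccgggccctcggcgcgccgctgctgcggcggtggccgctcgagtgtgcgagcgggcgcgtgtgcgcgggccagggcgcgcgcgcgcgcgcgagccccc
IGFBP6: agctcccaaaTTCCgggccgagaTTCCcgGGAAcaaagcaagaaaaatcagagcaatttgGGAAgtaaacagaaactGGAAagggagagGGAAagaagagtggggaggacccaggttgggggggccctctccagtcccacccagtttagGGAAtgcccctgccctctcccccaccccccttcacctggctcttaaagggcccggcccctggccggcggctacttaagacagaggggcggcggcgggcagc
The IGFBP6 window held 7 GGAA sites counted on both strands, the IGF1 windows 3 and 2, and the IGF1R window 1. Over the 34943 windows of the same length in the RefSeq table, 92.7% held a GGAA, with a median of 3 sites and a 95th percentile of 6. The pair GGAAGGAA, present in 3.06% of all windows, was in none of the 11 windows of the members. The TATA sequence TATAAA was found in 1 window, that of IGFBP4, against 10.8% of all windows. The GC box GGGCGG, found in 42.5% of all windows, occurred in the printed windows of IGF1R and IGFBP6 and in neither window of IGF1. These are matches of letters and not shown to be bound.

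Levels are given in TPM, the abundance of transcripts scaled for their length and the depth of the library, and can be set side by side between genes. A line's level is the mean ± SD of its 3 libraries. The libraries held between 15974173 and 51413254 estimated counts, so a level under 0.1 TPM usually rests on a few counts. The Ewing sarcoma and osteosarcoma lines were compared with edgeR's quasi-likelihood test on 1 summed count per line, 7 lines against 6, and log2 fold changes are Ewing minus osteosarcoma with their standard error (SE). P-values were adjusted over all genes to a false discovery rate (FDR), and a gene with an FDR under 0.05 was called. All 10 members passed the filter on low counts, and 4 were called, 1 higher and 3 lower in the Ewing lines, where 14.4% of the 21975 genes tested were called (5.99% higher and 8.46% lower). The median log2 fold change was -1.17 over the 10 members and -0.06 over all genes tested. As a check of the labels, 3 of 6 Ewing markers (NKX2-2, NR0B1 and STEAP1) were called higher in the Ewing lines. Of the 5 osteoblast genes tested, 3 (RUNX2, COL1A1 and SPP1) were called lower. CD99, ERG, ALPL and BGLAP were not called by edgeR. CD99 overlapped, with a median of 594 TPM in the Ewing and 414 TPM in the osteosarcoma lines. ALPL (36.1 against 4.37 TPM) and BGLAP (0.916 against 0.430 TPM) had higher medians in the Ewing lines, although their log2 fold changes were -1.14 and -0.88. FLI1 did not differ by the test, with 2.08 TPM in EW3, where ERG was 34.8 TPM, and 27.7 TPM in KHOS. NR0B1 reached only 0.651 TPM in MHHES1 and 0.316 TPM in RDES, and the bone matrix gene IBSP stayed at or below 0.367 TPM in all 13 lines. In bulk RNA, fewer cells that express a gene and less RNA per cell cannot be told apart.

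**Figure D1:**
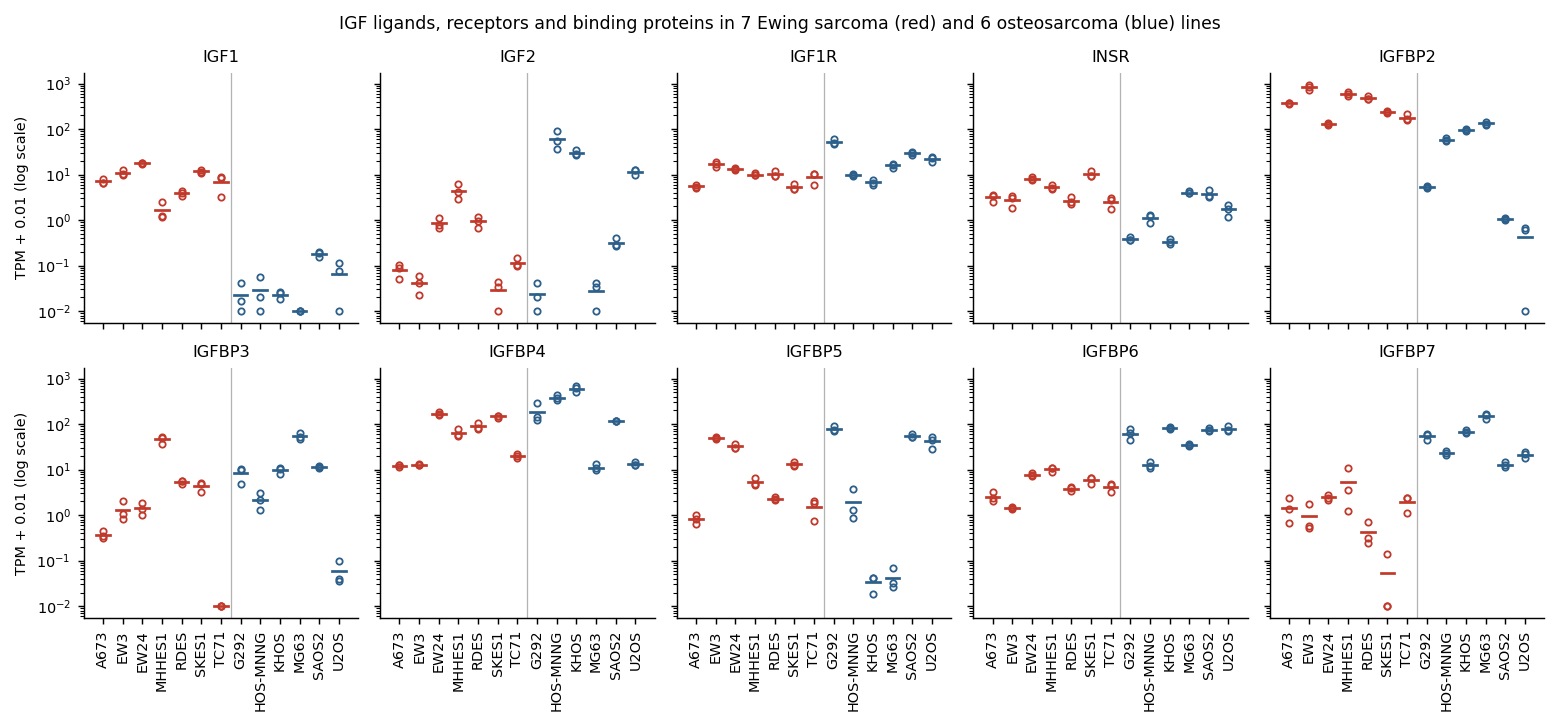
TPM of the 10 members in each library (circles, log axis after adding 0.01) with the mean of each line (bars), for 7 Ewing sarcoma lines in red and 6 osteosarcoma lines in blue. In IGF1 every Ewing line lies above every osteosarcoma line, in IGFBP6 and IGFBP7 below, and the line means of the other 7 members overlap.

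IGF1 RNA was present in every Ewing line and close to absent in every osteosarcoma line. Line means in the Ewing lines ran from 1.63 ± 0.730 TPM in MHHES1, through a median of 7.14 TPM, to 17.8 ± 0.514 TPM in EW24. In the osteosarcoma lines they ran from 0 in MG63, through a median of 0.0159 TPM, to 0.172 ± 0.0230 TPM in SAOS2. The groups did not overlap, which held for 5.59% of all genes tested (3.19% with the Ewing lines above). The log2 fold change was 6.47 (SE 1.03, edgeR FDR = 0.00163), an 88.4-fold difference in the fit. No osteosarcoma library had more than 19.8 estimated IGF1 counts, so this size rests on few counts on 1 side, and it became 7.54 without SAOS2. The call held in all 16 fits that left out 1 line or 1 replicate of every line, with an FDR between 0.00073 and 0.00505. The 3 MG63 libraries at 0 counts still allow 0.108 to 0.188 CPM (counts scaled for depth only), taking 3 counts as the limit of a zero.

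Within the Ewing lines, EW24 stood above all others for IGF1. SKES1 (11.8 ± 0.921 TPM) and EW3 (11 ± 1.55 TPM) came next and overlapped in their libraries. A673 (7.14 ± 0.798 TPM) overlapped TC71 (6.94 ± 3.22 TPM), and TC71 overlapped RDES (3.88 ± 0.433 TPM). In TC71 1 library gave 3.23 TPM against 9.02 and 8.58 TPM in the others. MHHES1 was the lowest Ewing line, and all of its libraries were below those of RDES. Transcript NM_001111285.3 took 54.5% to 79.5% of IGF1 TPM in the 7 Ewing lines and the sh908 groups, the most of the 7 IGF1 transcripts in each.

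IGF2 had another distribution, high in 3 osteosarcoma lines and low or near absent elsewhere. HOS-MNNG had 60.9 ± 27.3 TPM, with libraries at 37.4, 54.4 and 90.9 TPM. KHOS followed at 29.9 ± 4.72 TPM and U2OS at 11.7 ± 1.60 TPM, and the libraries of these 3 lines did not overlap each other. MHHES1 was the only Ewing line with a mean above 1 TPM, at 4.42 ± 1.72 TPM. RDES (0.934 ± 0.268 TPM) and EW24 (0.850 ± 0.218 TPM) overlapped, followed by SAOS2 at 0.308 ± 0.0761 TPM. TC71, A673, EW3, SKES1, MG63 and G292 had between 0.107 and 0.0140 TPM, and every neighbouring pair in that stretch overlapped. In edgeR the log2 fold change between tumour types was -4.58 (SE 1.80), which did not pass edgeR's test (FDR = 0.106), while DESeq2 called it at an adjusted p of 0.012. It was -3.55 without HOS-MNNG and -5.94 without MHHES1, and none of the 16 leave-out fits called it.

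The lines that made IGF2 did not list the same IGF2 transcripts first. NM_001291861.3 took 82.3% ± 2.99 of IGF2 TPM in KHOS and 68.8% ± 10.3 in HOS-MNNG. NM_001291862.3 took 68.5% ± 11.2 in MHHES1 and 72.8% ± 21 in RDES, where NM_001291861.3 had 3.03% ± 1.07 and 3.34% ± 1.38. U2OS was divided, at 50.6% ± 25.8 and 29.2% ± 24.4, with a wide spread between its libraries. These transcripts share much of their sequence, so the split is the estimate of the assignment program, and it was not tested. H19, the noncoding neighbour of IGF2, was at most 3.46 TPM, in U2OS, and 0.325 TPM in HOS-MNNG. The read-through gene INS-IGF2 was listed at 0 in all 15 groups, and adding it to IGF2 changed no value. INS, the insulin gene beside IGF2, was 17.4 ± 4.99 TPM in HOS-MNNG and at most 0.202 TPM in the other 12 lines. The antisense gene IGF2-AS was 1.57 TPM in HOS-MNNG and 0.188 TPM in KHOS. Whether the counting used the strand is not given in the sources used here, so reads of IGF2 and IGF2-AS could be mixed.

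**Figure D2:**
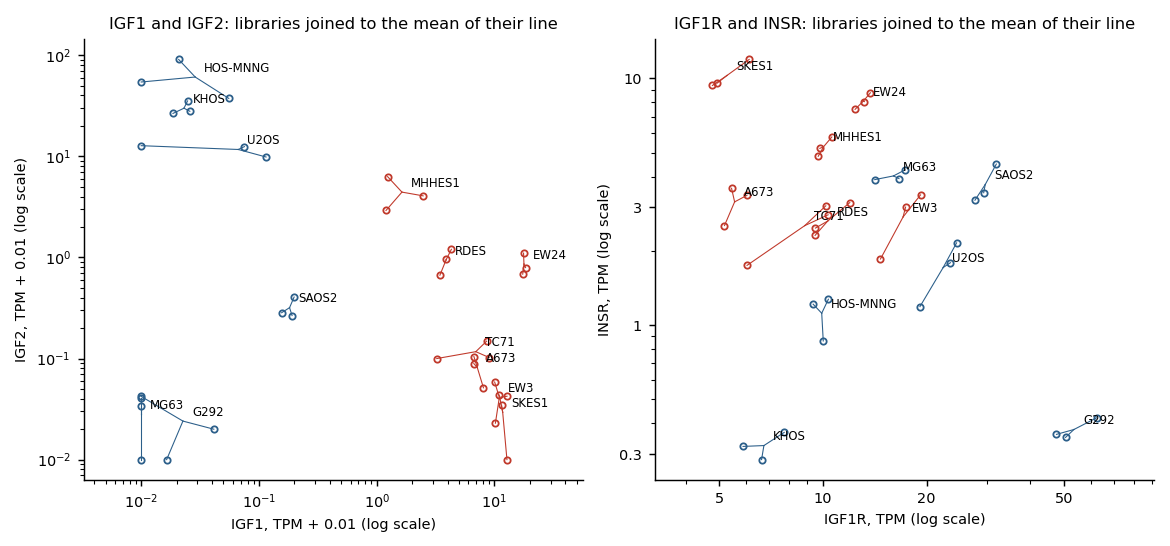
Left, IGF1 against IGF2, and right, IGF1R against INSR, in TPM on log axes (0.01 added on the left), with each library (circle) joined to the mean of its line, Ewing sarcoma in red and osteosarcoma in blue. HOS-MNNG, KHOS and U2OS lie at high IGF2 and low IGF1, and G292 has the most IGF1R of all lines with 0.378 TPM of INSR.

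IGF1R was expressed in all 13 lines within a narrower range. G292 had the highest level at 53.5 ± 7.77 TPM, followed by SAOS2 at 29.6 ± 2.14 TPM, both apart from the next line. U2OS (22.3 ± 2.82 TPM), EW3 (17.1 ± 2.27 TPM) and MG63 (16 ± 1.67 TPM) overlapped in order, with EW24 below them at 13.1 ± 0.670 TPM. RDES, MHHES1, HOS-MNNG, TC71, KHOS, A673 and SKES1 formed a chain of overlapping lines from 10.3 to 5.27 TPM. The Ewing median was 10.04 TPM and the osteosarcoma median 19.2 TPM, and the groups overlapped. IGF1R was called lower in the Ewing lines, with a log2 fold change of -1.27 (SE 0.397, edgeR FDR = 0.047). DESeq2 called it too, at an adjusted p of 0.00755. The edgeR call held in 5 of 16 leave-out fits, those without EW3, HOS-MNNG or KHOS and those without replicate 2 or 3 of every line, and was lost in the other 11, with an FDR up to 0.109, and without the filter on low counts. Without G292 the log2 fold change was -0.80, and the exact permutation test on TPM gave p = 0.0659 for 7 lines against 6 (2-sided).

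INSR was in general the other way round, although not beyond the spread between lines. SKES1 (10.3 ± 1.43 TPM), EW24 (8.10 ± 0.627 TPM) and MHHES1 (5.28 ± 0.481 TPM) were the 3 highest lines, each apart from the next. From MG63 (4.03 ± 0.204 TPM) through SAOS2, A673, EW3, RDES, TC71 and U2OS to HOS-MNNG (1.12 ± 0.222 TPM), each line overlapped the next in the order. G292 (0.378 ± 0.0382 TPM) and KHOS (0.325 ± 0.0413 TPM) were lowest and overlapped. The fitted log2 fold change was 1.37 (SE 0.613, edgeR FDR = 0.152), and the 2-sided exact permutation test on log2(TPM + 1) gave p = 0.0291, or 0.127 after adjustment over all genes. The ratio of IGF1R to INSR TPM was 0.513 ± 0.00264 in SKES1, the only line with more INSR than IGF1R. It reached 6.46 ± 1.27 in EW3, the highest Ewing line, and among the osteosarcoma lines ran from 3.98 ± 0.308 in MG63 to 141 ± 8.34 in G292. The median ratio was 1.91 over the Ewing and 11.3 over the osteosarcoma lines, given without a test.

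The INSR isoforms differ by exon 11, which isoform A lacks. The 36 bases of this exon, chr19:7150497-7150532 on the minus strand (GRCh38, GENCODE 29), are shown in capitals between 15 bases of the neighbouring exons, since the share of isoform A depends on reads over this stretch.
INSR exon 11: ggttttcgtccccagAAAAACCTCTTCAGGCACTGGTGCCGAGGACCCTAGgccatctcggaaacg
The share of isoform A, NM_001079817.3 as a percentage of it and NM_000208.4 by TPM, was 97.3% ± 4.56 (SD, n = 7) in the Ewing and 87.1% ± 19 (SD, n = 6) in the osteosarcoma lines. The difference of 10.2 percentage points did not pass a 2-sided exact permutation test (p = 0.145). MG63 had the lowest share at 50.3% ± 9.90, with libraries at 54.6%, 57.2% and 38.9%, and without it the difference was 2.87 percentage points. SKES1 (90.6% ± 2.04) and EW24 (90.6% ± 8.41) were the only Ewing lines under 99%. In G292 2 libraries were at 99.5% and 99.7% and 1 at 52.3%, on 48 to 88 INSR counts. A predicted transcript, XM_011527989.4, took up to 31.1% of INSR TPM, in G292, and did not enter the share.

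**Figure D3:**
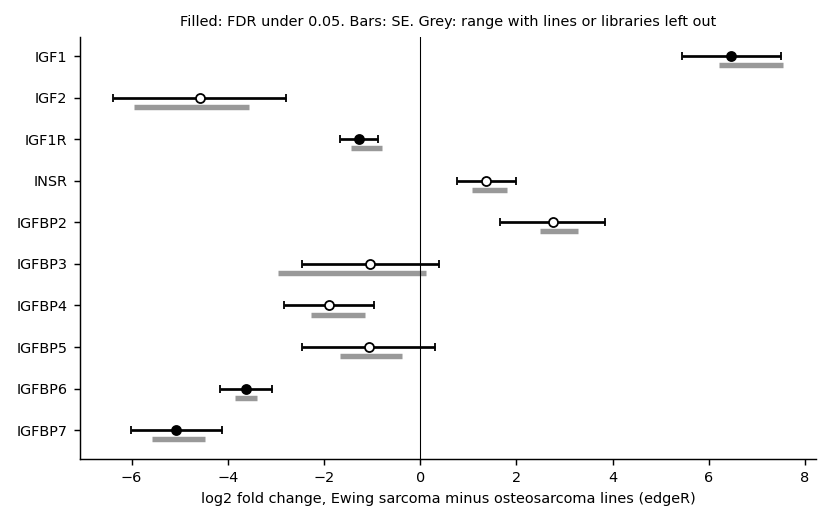
edgeR log2 fold changes of the 10 members between 7 Ewing sarcoma and 6 osteosarcoma lines (points, filled where the FDR was under 0.05) with their SE (error bars) and, in grey, the range over fits that left out 1 line or 1 replicate of every line. IGF1, IGFBP6 and IGFBP7 keep their side of 0 and are far from it, while the range of IGFBP3 crosses 0.

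IGFBP6, which binds IGF2 in preference to IGF1, and IGFBP7 were low in all Ewing lines and higher in all osteosarcoma lines. IGFBP6 ranged from 1.45 ± 0.0882 TPM in EW3, through a median of 4.21 TPM, to 10.3 ± 1.10 TPM in MHHES1 in the Ewing lines. In the osteosarcoma lines it ranged from 12.7 ± 1.94 TPM in HOS-MNNG, through a median of 69.1 TPM, to 82.9 ± 3.97 TPM in KHOS. The groups did not overlap (2.39% of all genes had the Ewing lines below), and from KHOS through U2OS and SAOS2 to G292 each line overlapped the next in the order. HOS-MNNG was closer to MHHES1 than to KHOS, its relative. Between tumour types the log2 fold change was -3.63 (SE 0.541, edgeR FDR = 0.00107), a 12.4-fold difference, and it stayed between -3.85 and -3.39 in the leave-out fits, all of which called it.

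IGFBP7 ranged from 0.0437 ± 0.0756 TPM in SKES1, through a median of 1.46 TPM, to 5.30 ± 5.09 TPM in MHHES1 in the Ewing lines. The MHHES1 libraries were far apart, at 1.24, 3.65 and 11 TPM. Osteosarcoma lines ranged from 12.9 ± 1.84 TPM in SAOS2, through a median of 38.8 TPM, to 150 ± 19.98 TPM in MG63. The line means did not overlap between tumour types, and every single Ewing library was below every osteosarcoma library. The log2 fold change was -5.07 (SE 0.955, edgeR FDR = 0.00429), a 33.5-fold difference, and all 16 leave-out fits called it, from -5.57 without MHHES1 to -4.47 without MG63. For both genes the 2-sided exact permutation test on TPM gave p = 0.000583, the smallest that the splits of 13 lines allow, and 0.0158 after adjustment over all genes. The antisense gene IGFBP7-AS1 stayed at or below 0.404 TPM.

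IGFBP2 was the most abundant member in 6 of the 7 Ewing lines. Levels ran from 129 ± 7.22 TPM in EW24, through a median of 370 TPM, to 836 ± 113 TPM in EW3. In the osteosarcoma lines they ran from 0.410 ± 0.357 TPM in U2OS, through a median of 31.7 TPM, to 134 ± 9.62 TPM in MG63. The order was sharp: of the 12 neighbouring pairs, only MG63 and EW24 overlapped, which is also the only point at which the tumour types met. SAOS2 (1.06 ± 0.0668 TPM) and G292 (5.33 ± 0.308 TPM) were low beside KHOS (95.3 ± 4.55 TPM) and HOS-MNNG (58.0 ± 4.13 TPM). The tests disagreed on IGFBP2. In edgeR the log2 fold change was 2.76 (SE 1.09, edgeR FDR = 0.108) and did not pass in any leave-out fit, DESeq2 gave an adjusted p of 0.0265, and the 2-sided exact permutation test on log2(TPM + 1) gave p = 0.00117, or 0.0212 after adjustment over all genes. DESeq2 called 24.6% of all genes against 14.4% in edgeR.

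IGFBP4, IGFBP3 and IGFBP5 differed between lines more than between tumour types. IGFBP4 was highest in KHOS (604 ± 82.1 TPM) and HOS-MNNG (384 ± 52.3 TPM), followed by G292 (185 ± 89.8 TPM), in which 1 library had 288 TPM and the others 143 and 124 TPM. EW24 (169 ± 14.7 TPM), SKES1 (149 ± 8.88 TPM), SAOS2 (119 ± 0.365 TPM), RDES (89.1 ± 15.2 TPM) and MHHES1 (62.8 ± 13.1 TPM) came next. TC71 was at 20.01 ± 2.05 TPM, and U2OS, EW3, A673 and MG63 overlapped in order from 13.4 to 11.2 TPM. Its log2 fold change was -1.90 (SE 0.942, edgeR FDR = 0.198).

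IGFBP3, the main carrier of IGFs in blood, was high in MG63 (54.7 ± 7.97 TPM) and MHHES1 (46.4 ± 7.76 TPM), whose libraries overlapped. SAOS2 (11.5 ± 0.560 TPM) was apart from both its neighbours in the order. KHOS (9.79 ± 1.52 TPM) and G292 (8.47 ± 3.11 TPM) overlapped, and so did G292 and RDES (5.43 ± 0.499 TPM) and RDES and SKES1 (4.41 ± 1.06 TPM). HOS-MNNG, EW24 and EW3 followed between 2.15 and 1.28 TPM. A673 had 0.364 ± 0.0687 TPM and U2OS 0.0490 ± 0.0361 TPM. TC71 had 0 counts in 3 libraries, which still allows 0.0845 to 0.115 CPM. The fitted log2 fold change of -1.04 (SE 1.42, edgeR FDR = 0.673) depended on single lines, at -2.96 without MHHES1 and 0.13 without MG63.

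IGFBP5 was high in both tumour types, in G292 (79.4 ± 10.7 TPM), SAOS2 (54.9 ± 5.08 TPM), EW3 (50.01 ± 3.40 TPM), U2OS (42.2 ± 12.5 TPM) and EW24 (32.4 ± 3.29 TPM). SKES1 (13.2 ± 1.63 TPM) and MHHES1 (5.33 ± 1.14 TPM) were intermediate, and RDES, HOS-MNNG, TC71 and A673 lay between 2.28 and 0.830 TPM. KHOS (0.0241 ± 0.0134 TPM) and MG63 (0.0324 ± 0.0227 TPM) had 1 to 4 counts per library. KHOS thus held 604 TPM of IGFBP4 and almost no IGFBP5, while G292 was high in both. Between tumour types the log2 fold change was -1.07 (SE 1.38, edgeR FDR = 0.654).

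The make-up of the binding proteins differed by line. In the summed TPM of IGFBP2 to IGFBP7, IGFBP2 had the largest share in 6 of the 7 Ewing lines, from 58.0% ± 0.397 in SKES1 to 95.5% ± 0.328 in A673. In EW24, IGFBP4 led with 49.4% ± 2.25 and IGFBP2 had 37.8% ± 2.68. IGFBP4 led in 4 osteosarcoma lines, with 79.5% ± 0.822 in HOS-MNNG, 70.0% ± 3.30 in KHOS, 45.2% ± 9.51 in G292 and 43.3% ± 0.568 in SAOS2. U2OS was led by IGFBP6 with 50.2% ± 3.16, and MG63 by IGFBP7 with 38.9% ± 4.58, beside IGFBP2 with 34.8% ± 3.06. In 1 of the 3 MG63 libraries IGFBP2 (144 TPM) was above IGFBP7 (127 TPM). The sums ran from 208 ± 23.9 TPM in TC71 to 902 ± 112 TPM in EW3 and, among the osteosarcoma lines, from 155 ± 23.4 TPM in U2OS to 861 ± 77.3 TPM in KHOS, so that the totals overlapped. IGFBP1, an insulin-regulated liver protein, was 9.04 ± 1.54 TPM in KHOS, 3.02 ± 0.383 TPM in HOS-MNNG and at most 0.08 TPM elsewhere.

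**Figure D4:**
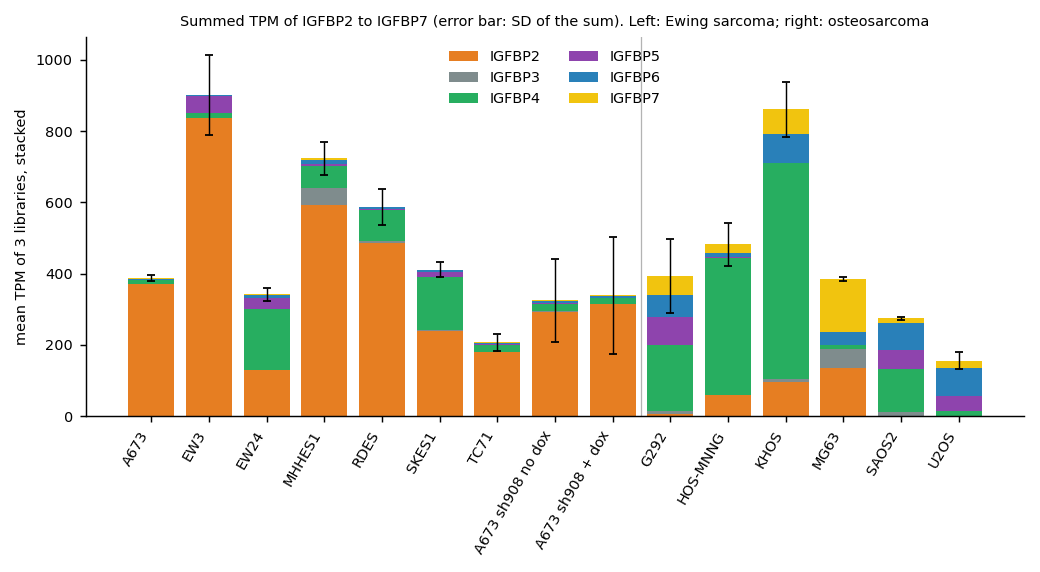
Mean TPM of IGFBP2 to IGFBP7 stacked for each line and both sh908 groups, with the SD of the sum over 3 libraries as an error bar, Ewing sarcoma to the left of the grey line and osteosarcoma to the right. IGFBP2 fills most of the bars on the left except in EW24, and IGFBP4 takes 79.5% of the bar in HOS-MNNG and 70.0% in KHOS.

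Around the 10 members, 43 genes of the pathway were listed, of which 39 were tested and 6 called, 5 higher and 1 lower in the Ewing lines, beside 14.4% of all genes. Their median log2 fold change was -0.36. Among the proteases that cut binding proteins, PAPPA, which cleaves IGFBP4 and releases its ligand, was 9.31 to 62.1 TPM in the Ewing and 0.0333 to 4.95 TPM in the osteosarcoma lines, without overlap. Its log2 fold change was 4.28 (SE 0.925, edgeR FDR = 0.00884), and 5.24 without G292. HTRA1, a secreted serine protease, was at most 1.98 TPM in the Ewing lines, in A673, and 2.78 to 298 TPM in the osteosarcoma lines. Its log2 fold change was -7.65 (SE 1.76, edgeR FDR = 0.0123), with -9.61 without A673 and -6.23 without G292. The PAPPA inhibitors STC1 (-2.11, FDR = 0.272) and STC2 (-2.48, FDR = 0.0616) did not pass edgeR's test, while DESeq2 called STC2 at an adjusted p of 0.00506. STC2 was 39.8 TPM or more in every osteosarcoma line except U2OS (0.407 ± 0.160 TPM), and edgeR called it without U2OS or without replicate 1 of every line.

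Of the receptor adaptors, IRS2 was 21.7 to 97.9 TPM in the Ewing lines and 0.114 to 3.96 TPM in the osteosarcoma lines. The log2 fold change was 4.31 (SE 0.761, edgeR FDR = 0.00294). IRS1, which passes on the same signals, overlapped between tumour types, with a median of 14.5 TPM against 34 TPM and a log2 fold change of -1.07 (FDR = 0.123). GRB10, an inhibitory adaptor that binds IGF1R and INSR, is named because its values stood out: it was 0.0833 ± 0.0135 TPM in A673 and 19.3 to 46.6 TPM in the other 6 Ewing lines. The PI3K-AKT branch had 1 called gene of 16, the regulatory subunit PIK3R1 (log2 fold change 1.33, SE 0.310, edgeR FDR = 0.0128). Of the FOXO factors, which AKT keeps out of the nucleus, FOXO4 was called at the margin (1.62, SE 0.513, FDR = 0.0498) and held in 4 of 16 leave-out fits, those without A673 or MG63 and those without replicate 1 or 2 of every line.

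IGF2R, the scavenger receptor that takes up IGF2, was 13.9 to 33.1 TPM in the Ewing and 19.4 to 77.8 TPM in the osteosarcoma lines (log2 fold change -0.71, edgeR FDR = 0.129). IGF2BP1, which binds IGF2 mRNA among many others, was 65.2 to 236 TPM in the Ewing lines and 0.332 to 25.8 TPM in the osteosarcoma lines. Its log2 fold change was 2.89 (SE 0.834, edgeR FDR = 0.0347), and the call was lost without MHHES1, SKES1, G292 or SAOS2. IGF2BP2 (-0.65, FDR = 0.342) and IGF2BP3 (-0.65, FDR = 0.591) did not pass. HOS-MNNG and KHOS, which had the most IGF2, had 20.4 and 25.8 TPM of IGF2BP1.

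Genes with the pattern most like that of a member were sought among 15707 genes of at least 5 TPM in some line, by Pearson's r of log2(TPM + 1) over the 13 line means. These correlations share the division into 2 tumour types and the same libraries, are given with no test, and were the highest of a large search. The 3 nearest were HBQ1 (r = 0.94), CD79A and CPB2 for IGF1, WNK4 (r = 0.95), SOX15 and SCG5 for IGF2, ARHGAP44 (r = 0.93), CPEB1 and ACVR1 for IGF1R, and PAXIP1-DT (r = 0.90), GLE1 and INVS for INSR. For the binding proteins they were NCAPD3 (r = 0.91), TERT and PRAC2 for IGFBP2, TAF13 (r = 0.86), OAS2 and GMPR for IGFBP3, and CORO1B (r = 0.88), PLEKHG5 and TNFRSF25 for IGFBP4. SATB1 (r = 0.94), LINC01515 and PIK3R2 were nearest to IGFBP5, NRIP3 (r = 0.94), HOXA11-AS and LOC105375728 to IGFBP6, and MIR193A (r = 0.95), NCEH1 and TBX15 to IGFBP7.

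The hairpin comparison asked whether lowering KCNN1 in A673 moved these genes. KCNN1 itself was 37.8, 35.3 and 18 TPM in uninduced and 10.2, 13.7 and 7.75 TPM in induced cells, lower in all 3 pairs of equal replicate number. The groups did not overlap, as in 3.65% of all genes (1.46% lower and 2.19% higher with doxycycline). The mean with doxycycline was 34.8% of that without. The log2 fold change, with minus without doxycycline, was -1.53 (SE 0.518, edgeR FDR = 1) in the fit without pairing, and -1.46 (SE 0.128, FDR = 0.00132) with the replicate number as a block. Libraries of replicate 3 stood apart from replicates 1 and 2 in both groups, as in IGF1R, which was 3.64, 3.20 and 7.95 TPM in uninduced and 3.20, 3.24 and 7.49 TPM in induced cells.

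No member was called after induction, in either fit. Of 14252 genes tested, 0 were called without pairing (0%), 94 had an unadjusted p under 0.05 and DESeq2 called 2, while the fit with the block called 73 (0.512%, with 0.253% higher and 0.26% lower). Without the replicate 3 pair the block called 167 genes and again no member. IGFBP3, at 1 to 21 counts per library, did not pass the filter, and the other 9 members had a median log2 fold change of -0.05, against -0.002 for all genes. The nearest to a call was IGFBP4, with 17.7, 15.6 and 32.5 TPM before and 9.39, 13.4 and 25.4 TPM after induction. It was lower in 3 of 3 pairs, with a log2 fold change of -0.46 (SE 0.130, edgeR FDR = 0.167) in the fit with the block. IGF2 was higher in 3 of 3 pairs but near its lower limit, at 0.342 ± 0.110 TPM before and 0.488 ± 0.234 TPM after induction (log2 fold change 0.54 with the block, SE 0.340, edgeR FDR = 0.528).

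IGFBP5 and IGFBP6 were lower in 3 of 3 pairs by small amounts, with log2 fold changes of -0.30 (SE 0.188) and -0.17 (SE 0.269) and edgeR FDRs of 0.533 and 0.826 in the fit with the block. IGF1 was 3.44 ± 2.06 TPM in uninduced and 3.70 ± 1.99 TPM in induced cells, and IGFBP2 294 ± 109 and 315 ± 158 TPM, each overlapping. INSR was 3.06 ± 1.86 and 2.92 ± 1.72 TPM, and IGFBP7 2.25 ± 0.875 and 1.70 ± 0.781 TPM. The isoform A share of INSR was 98.3% ± 2.99 without and 100% with doxycycline in each library (2-sided exact permutation test, p = 1, where 3 against 3 allow no p below 0.1). Of the 43 other pathway genes, 36 were tested and 0 were called in either fit. Among the 9 tested genes of the fixed set of other genes that are named in every comparison, log2 fold changes ran from -0.41 (IRS1) to 0.57 (STC2).

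**Figure D5:**
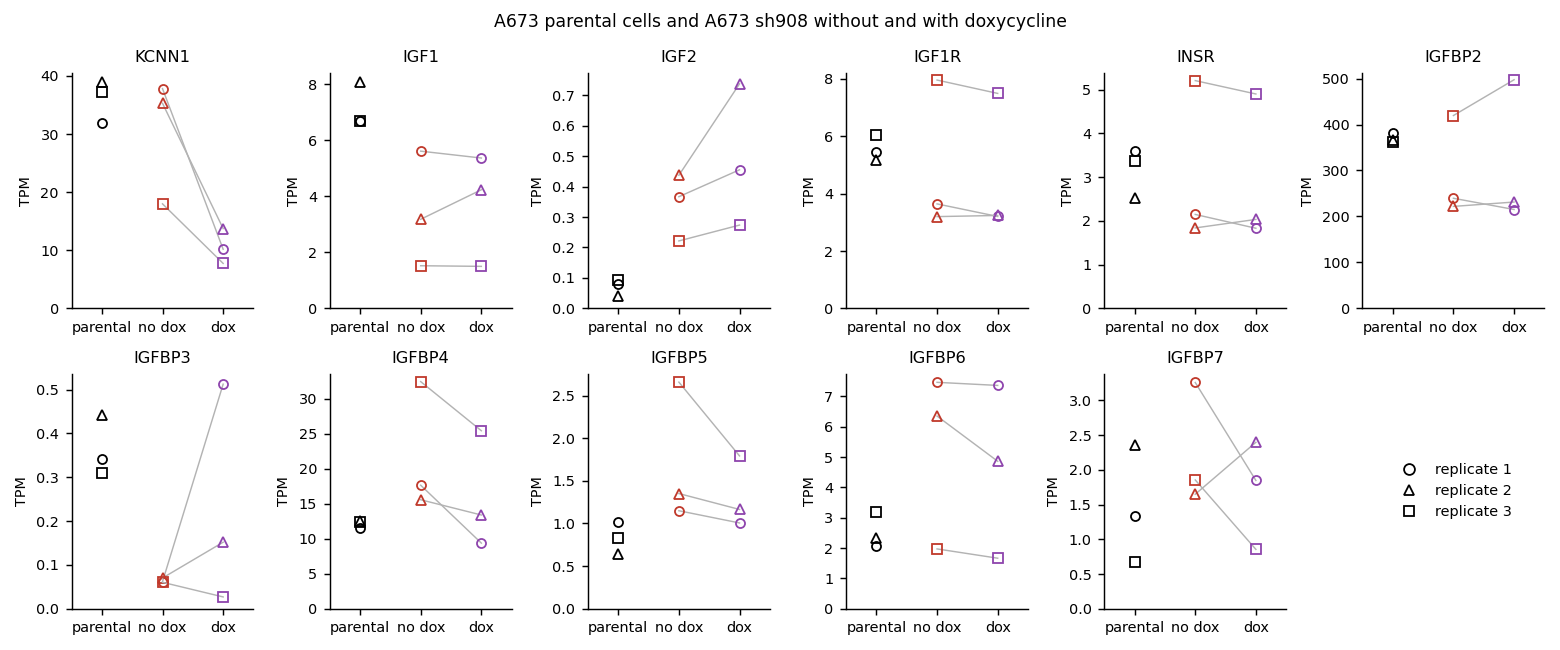
TPM of KCNN1 and the 10 members in parental A673 (black) and in A673 sh908 without (red) and with doxycycline (purple), 3 libraries each, with replicates of the same number marked by the same symbol and joined between the sh908 groups. KCNN1 falls in all 3 pairs to 34.8% of its mean, while the members overlap between the sh908 groups. In both sh908 groups replicate 3 (squares) is highest in IGF1R, INSR, IGFBP2, IGFBP4 and IGFBP5. It is lowest in both in KCNN1, IGF1, IGF2, IGFBP3 and IGFBP6.

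Uninduced sh908 cells, labelled doxycycline negative, and parental A673, whose labels name no treatment, were also compared. KCNN1 was 30.4 ± 10.8 TPM in uninduced sh908 and 36 ± 3.61 TPM in parental cells, overlapping (log2 fold change 0.31, SE 0.407, edgeR FDR = 0.626), and whether the hairpin was active without doxycycline was not tested. Cell stock and library set cannot be told apart in this comparison. Of the 15778 genes tested 15.1% were called (8.71% higher and 6.42% lower in sh908 cells), and 4 of the 10 members were, 3 higher and 1 lower. DESeq2 called 26.4% of genes and 3 members, without IGFBP3. IGFBP4 was 11.6, 12.5 and 12.4 TPM in parental and 17.7, 15.6 and 32.5 TPM in uninduced sh908 cells, without overlap, as for 7.75% of genes in that direction (log2 fold change 1.25, SE 0.165, edgeR FDR = 0.0105). IGF2 was 0.0717 ± 0.0274 TPM in parental and 0.342 ± 0.110 TPM in sh908 cells (2.70, SE 0.587, FDR = 0.0295), on 3 to 22 counts per library. IGFBP5 was 0.830 ± 0.189 and 1.72 ± 0.818 TPM (1.43, SE 0.292, FDR = 0.025), and IGFBP3 0.364 ± 0.0687 and 0.0641 ± 0.00528 TPM (-2.02, SE 0.508, FDR = 0.0428).

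IGF1 was lower in each uninduced sh908 library (5.61, 3.18 and 1.52 TPM) than in each parental one (6.68, 8.07 and 6.69 TPM) without passing the test (log2 fold change -1.04, SE 0.383, edgeR FDR = 0.114). IGFBP6 had a log2 fold change of 1.59 (SE 0.617, edgeR FDR = 0.127). It was called with all 45 libraries in the fit (1.58, edgeR FDR = 0.00368) and without the third uninduced library, and in none of the other 11 alternatives. TPM of all genes had a median shift of -0.41 on the log2 scale here and 46.6% of all genes did not overlap (38.8% lower and 7.75% higher in sh908 cells), so the TPM of a single gene says little, and the edgeR values are relative to its own scaling. IGFBP2 was 370 ± 9.52 TPM in parental and 294 ± 109 TPM in sh908 cells, with a log2 fold change of 0.02 (edgeR FDR = 0.921). Of the 43 other pathway genes, 36 were tested and 5 called, beside 15.1% of all genes: IGFBPL1 (2.27), FOXO4 (1.61) and PIK3R2 (1.07) higher, PDPK1 (-0.79) and IRS1 (-0.68) lower. These calls depended on single libraries. Without any one parental library 2 to 8 genes and no member were called, and without the third uninduced library 10202 genes and 7 members were.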

How the data were processed

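RNA from cell lines was sequenced as poly(A) libraries made with a stranded mRNA kit, per the labels' protocols. The submitters' processing notes list fastp 0.19.5 and kallisto 0.46.2, and the builds hg38 and GRCh38.p14, with no role or order. Each library has a table of 177816 RefSeq transcripts. It holds, per the file headers, the estimated count of a transcript, its TPM value, and other values, namely its length and effective length, all as the authors deposited them. Transcripts were joined to genes by accession through the RefSeq table of GRCh38.p14, which matched 169966 (95.6%), and the 7850 left out held 0.915% to 1.6% of a library's count.

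Gene counts were rounded, filtered with filterByExpr, scaled with TMM and fitted with edgeR 4.0.16 (R 4.3.3), with Benjamini-Hochberg adjustment. DESeq2 1.42.0, other scalings, filters, length offsets, and lines or libraries left out were alternatives. Exact permutation tests (run with numpy 2.4.6) used log2(TPM + 1), or percentages for the INSR isoform share. Shares of INSR isoforms needed 30 estimated INSR counts in a library. The scripts were tested on simulated data. Same-numbered sh908 libraries deviated together (correlations of 0.683, 0.582 and 0.881 over 14252 genes, all above 0.1), so their numbers were taken as pairs. Libraries numbered 1 and 2 correlated almost as well across numbers (0.608 and 0.517), so the correlations mainly set replicate 3 apart, and the fit with the replicate block is given beside the other. The levels of 1 listed pathway gene are not reported here. Members and gene lists were chosen with earlier results of these data known. Genes named were the members, a fixed set of pathway genes, other listed genes that were called (at most 4 each way), and the 3 of most like pattern per member.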

Additional observations from a re-analysis of the deposited data

Results flagged for a closer look

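A line was looked at again where its level stood apart from the other lines of its tumour type: the gap to the nearest line, divided by the range of the type on the log2(TPM + 1) scale (or in percent for the isoform share), exceeded Dixon's 95% critical value. Of 106 sets of lines examined, 12 had such a line. The critical value stands for about 1 in 20 only with independent, normally distributed values. Some sets lie near 0 and HOS-MNNG and KHOS are related, so the number of such lines cannot be set against chance. Among the members, IGF1 in SAOS2 (0.172 TPM) was the highest of the osteosarcoma lines and IGF2 in MHHES1 (4.42 TPM) the highest of the Ewing lines. The INSR isoform A share of MG63 (50.3%) was the lowest of the osteosarcoma lines. Beside IGF2 on chromosome 11, INS (17.4 TPM) and IGF2-AS (1.57 TPM) stood out in HOS-MNNG, and IGF2-AS in MHHES1 (0.0133 TPM), where the other 6 Ewing lines were at 0 and any level above 0 would have stood apart. Among the Ewing lines, A673 was apart in GRB10 (0.0833 TPM, low) and HTRA1 (1.98 TPM, high), and EW3 in PAPPA2 (0.350 TPM, high), RHEB (56.9 TPM, low) and IGF2BP2 (4.91 TPM, low). Among the osteosarcoma lines, U2OS was apart in STC2 (0.407 TPM, low). No group of 3 libraries was examined in this way.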

How the results depend on the processing

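Between tumour types, 3175 genes were called by edgeR and 5406 by DESeq2. With the replicate block, in which libraries were the samples around fixed line means, 16743 genes and all 10 members were called, and, among the members and the genes named in every comparison, IGFBP5 (1.18), STC1 (0.95) and IGF2BP3 (0.57) turned to higher in the Ewing lines. That fit leaves out the spread between lines, so its calls are not set beside the others. IGFBP3 was -2.96 without MHHES1 and 0.13 without MG63. The TPM difference of IGFBP5 turned to 0.57 and 1.12 with pseudocounts of 0.1 and 0.01 TPM, and ranged from -0.81 to 0.45 with lines left out.

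After doxycycline, 0 genes were called without and 73 with the replicate block, 2 by DESeq2, 12 with all 45 libraries in the fit, and 7 to 167 with the block and 1 pair left out. No member was called in any of these. With 1 library left out, IGF1 ranged from -0.02 to 0.78, IGF1R from -0.31 to 0.20, INSR from -0.35 to 0.30, IGFBP2 from -0.088 to 0.24 and IGFBP6 from -0.71 to 0.34. With the replicate block and a pair left out, IGF1 turned to -0.022, INSR to 0.047 and IGFBP2 to -0.00878. The isoform A difference ranged from 0 to 2.59 percentage points.

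For uninduced sh908 against parental cells, 2388 genes and 4 members were called, 4169 genes by DESeq2, 7558 (and 5 members) with all 45 libraries, and 2 to 10202 genes and 0 to 7 members with a library left out. IGF1R ranged from -0.052 to 0.32, INSR from -0.0017 to 0.48 and IGFBP2 from -0.039 to 0.068. The replicate block gave 319 genes and 1 member, IGFBP4, but these numbers did not pair the samples (correlations of 0.0455, 0.0866 and 0.25). Depth limits values under about 0.1 TPM.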
